A study of Mus musculus with 2 samples.

Results

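The genes described here are the 59 genes of the Wnt signalling pathway that were chosen by symbol from the 43346 genes measured in embryonic mouse kidney. They are the 19 Wnt ligands, 10 Frizzled receptors, 2 LRP co-receptors, 4 R-spondins, 3 Lgr receptors and 2 receptor ubiquitin ligases, 9 secreted inhibitors, 2 proteins of ligand secretion, 3 proteins of the destruction complex, beta-catenin and 4 TCF/LEF factors. All 59 were found in the tables. Total RNA longer than 200 nt was sequenced from 2 libraries of 1 group, each made from 10 ng of RNA of the 2 kidneys of 1 B6NCrl embryo at day 14.5 (E14.5), with spike-in RNAs added. The labels number the libraries as biological replicates 1 and 2, place their collection 2 days apart, and describe each as a pool of both sexes although it came from 1 pup. No second condition was measured, so levels and the spread between replicates are given and no test was possible.

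Wnt proteins are secreted, lipid-modified signals. In the canonical branch they bind a Frizzled receptor together with Lrp5 or Lrp6, which stops a cytoplasmic destruction complex from marking beta-catenin for breakdown, and beta-catenin then switches on genes with DNA-bound TCF/LEF factors. In the developing kidney Wnt9b from the ureteric epithelium induces nephron formation, Wnt4 drives the condensing mesenchyme to become epithelium, and Wnt11 at the ureteric tips supports branching.

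The depth was 29718428 and 29204212 expected counts in replicates 1 and 2, of which 87422 and 67392 lay on the pathway genes (0.294% and 0.231%). Levels are in TPM, transcript abundance scaled per length and library, with replicate 1 given before replicate 2 and means as mean ± SD (n = 2). The tissue carried its defining markers. All markers of nephron progenitors (5 of 5), early nephron (4 of 4), ureteric epithelium (5 of 5), stroma (5 of 5), podocytes (3 of 3) and endothelium (3 of 3) reached 1 TPM in both libraries, against 0 of 3 each for adrenal cortex, gonad and skeletal muscle and 2 of 3 each for liver, neurons, and blood and immune cells (Lyz2 at 42.0 and 27.2 TPM). In whole tissue, fewer cells of a type and less RNA per cell cannot be told apart.

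Most of the pathway was transcribed. At a floor of 1 TPM in both libraries, 41 of 59 pathway genes (69.5%) were detected, beside 59.0% of protein-coding genes. Of the other 18, Sfrp4 passed in 1 library only, 17 stayed under 1 TPM in both, and 4 of these (Wnt1, Wnt3a, Wnt10b and Dkk4) had a count of 0 in both. The median level over the 59 genes was 7.3 TPM, beside 4.20 TPM over all protein-coding genes. Among detected genes alone the order was the other way, with 14.3 TPM for pathway genes and 18.3 TPM for protein-coding genes. The undetected genes were concentrated among the ligands, of which 11 of 19 missed the floor, while every gene of the destruction complex, the TCF/LEF factors, the LRP co-receptors and the secretion proteins passed it.

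**Figure D1:**
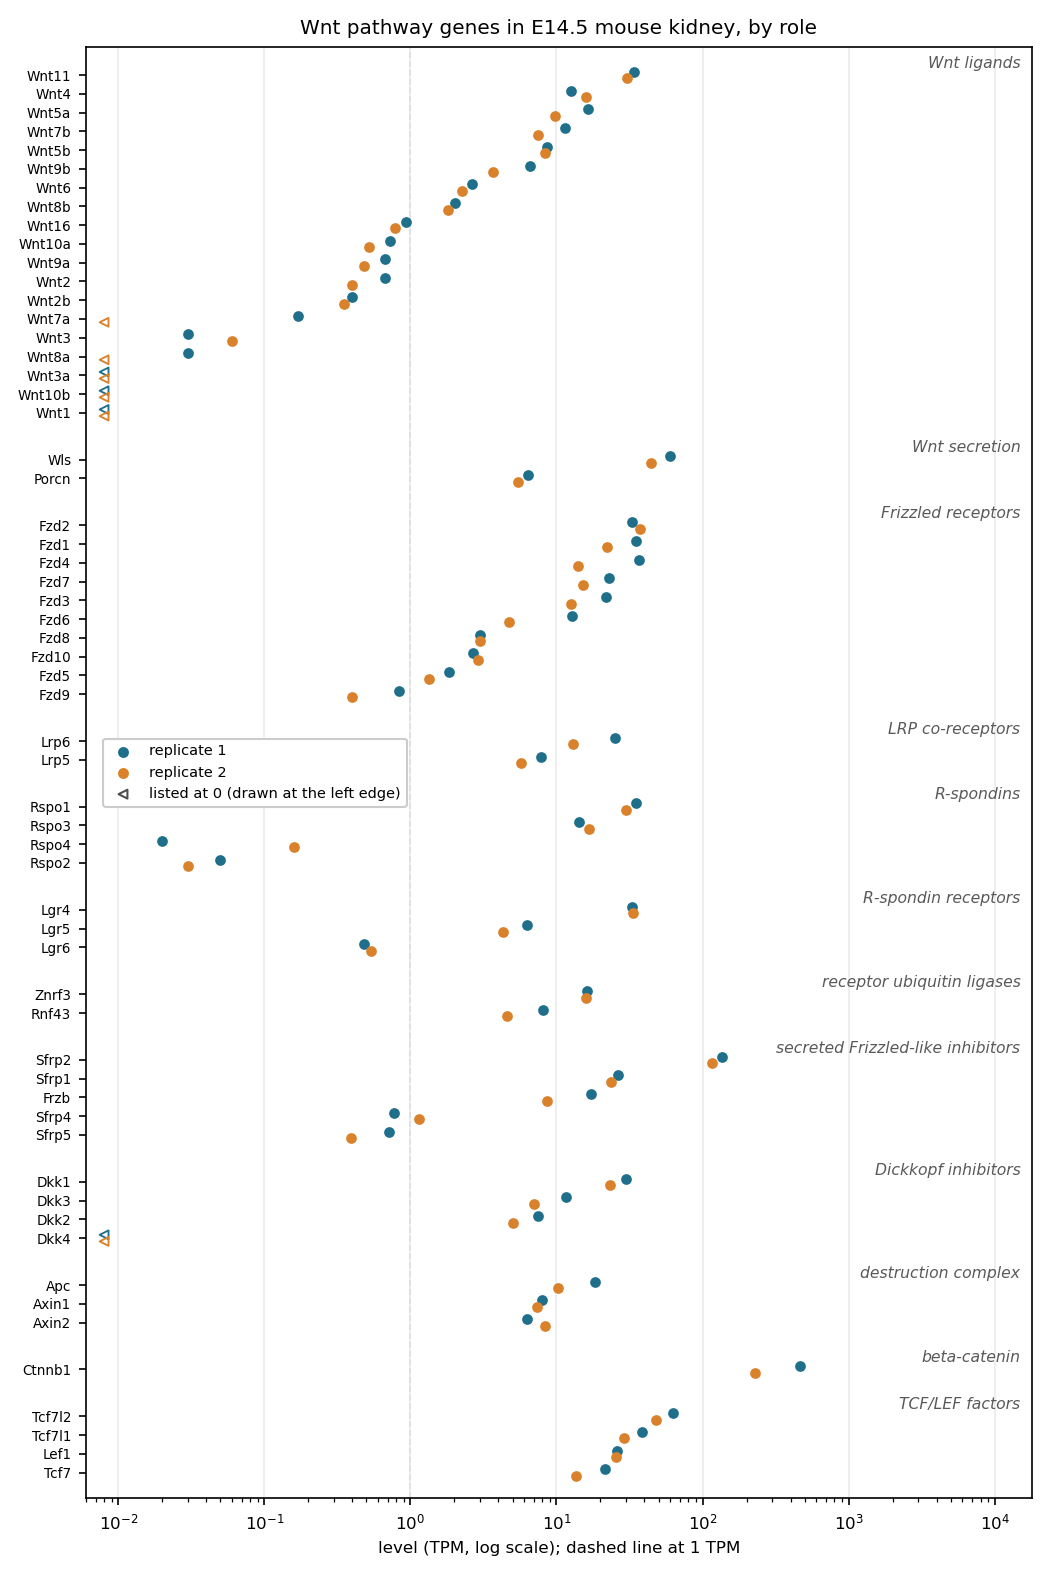
Level in TPM (log scale, horizontal axis) of each of the 59 Wnt pathway genes in replicate 1 and replicate 2, grouped by role and ordered by mean level within it. Points are single libraries, open triangles at the left edge are values listed at 0, and Ctnnb1 at 461 and 227 TPM lies farthest to the right.

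Wnt11 was the most abundant ligand by gene-level TPM, at 34.1 and 30.6 TPM (32.3 ± 2.47). In both libraries it lay above all other ligands on this scale. Its share of the summed ligand level was 34.7% and 37.1% (35.9% ± 1.64), against a mean of 16.2% with protein-coding transcripts alone, where it did not lead. Wnt4 stood at 12.6 and 16.1 TPM and Wnt5a, a ligand known mainly for signalling without beta-catenin, at 16.5 and 9.82 TPM. These 2 changed places between the libraries, so their order was not resolved. Wnt7b, which acts in the collecting duct and in the laying out of the medulla, had 11.4 and 7.49 TPM. Wnt5b, the close relative of Wnt5a, had 8.58 and 8.29 TPM.

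Wnt9b, the inducer of nephrons, was lower than the ligands above in both libraries, at 6.60 and 3.67 TPM (5.14 ± 2.07). Wnt4 RNA exceeded it 1.91-fold in replicate 1 and 4.37-fold in replicate 2. Wnt6 had 2.66 and 2.27 TPM and Wnt8b, best known from the forebrain, 2.03 and 1.80 TPM on 130 and 133 counts. Together the 19 ligands summed to 98.2 and 82.6 TPM. In the order of detected ligands, neighbours differed by more than the larger of their SDs, with ranges that did not overlap, at 4 of 7 steps, namely Wnt11 over Wnt4, Wnt5b over Wnt9b, Wnt9b over Wnt6 and Wnt6 over Wnt8b. Wnt5a was above Wnt7b in both libraries, but their ranges overlapped.

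The 11 ligands under the floor fell into a trace group and an undetected group. Wnt16 (0.93 and 0.78 TPM), Wnt10a (0.72 and 0.52 TPM), Wnt9a (0.67 and 0.48 TPM), Wnt2 (0.67 and 0.40 TPM) and Wnt2b (0.40 and 0.35 TPM) each rested on 18 to 42 counts per library. Wnt7a had 10 counts in replicate 1 and 0 in replicate 2, Wnt3 had 2 and 4, and Wnt8a had 1 and 0. Wnt1, Wnt3a and Wnt10b had none. A count of 0, taken to allow up to 3 counts, allows these 3 genes a level of up to 0.0849 TPM in replicate 1 and 0.0736 TPM in replicate 2. They were thus not detected at this depth, which does not show that they were absent.

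Several Wnt genes lie side by side in the genome, and in none of the 4 pairs within 100000 nt of each other did both genes reach the floor. Only 8 of the 19 ligands reached it at all, so few pairs of any ligands hold 2 detected genes. The count over 4 pairs therefore says nothing particular to neighbours. On chromosome 11 Wnt9b and Wnt3 lie 24328 nt apart on opposite strands, and Wnt9b had 569 and 365 counts beside the 2 and 4 counts of Wnt3. On chromosome 1 Wnt6 and Wnt10a lie 6193 nt apart on the same strand, with Wnt6 higher than Wnt10a 3.69-fold and 4.37-fold. In the pair of Wnt3a and Wnt9a on chromosome 11 and that of Wnt10b and Wnt1 on chromosome 15, neither gene reached 1 TPM.

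The Wnt11 RNA was mixed in its annotated coding potential. Its leading transcript in both libraries was Wnt11-202, annotated as a target of nonsense-mediated decay (the breakdown of RNAs with an early stop codon), with 50.2% and 54.7% of the gene's TPM, against 30.6% and 31.7% for the coding Wnt11-205. Protein-coding transcripts together held 34.0% ± 1.54. Wnt11 (ENSMUSG00000015957.7) lies on mm10 chromosome 7, 98835112 to 98855195, plus strand. Wnt11-202 lacks the first 82 nt of a coding exon, chr7:98846374-98846455, a length that is not a multiple of 3. Its annotated coding sequence is 147 nt long, beside 1062 nt in Wnt11-205. The segment is shown because it separates these forms. Capitals mark the 82 nt and lower case marks 12 nt of neighbouring exon sequence on each side, on the plus strand, from GENCODE M21 transcripts on GRCm38.
Wnt11 exon segment: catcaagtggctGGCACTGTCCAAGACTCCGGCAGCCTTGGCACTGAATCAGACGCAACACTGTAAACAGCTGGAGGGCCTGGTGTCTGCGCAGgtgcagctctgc
Transcripts with the segment held 49.9% and 45.3% of the Wnt11 TPM (47.6% ± 3.21). These shares were apportioned by the deposited quantification over whole transcripts, which also differ in their first exon and their 3′ end, so they do not measure this junction alone. With protein-coding transcripts alone, the Wnt11 share of the summed ligand level was 15.9% and 16.6%, a mean of 16.2%, which placed it at rank 3 in replicate 1 and rank 2 in replicate 2. Wnt5a then led in replicate 1 at 16.4 TPM, against 12.6 TPM for Wnt4, and Wnt4 led in replicate 2 at 16.1 TPM, against 8.86 TPM for Wnt5a. No ligand led in both libraries on this count, and Wnt4 had the largest mean share at 21.6%.

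Among other ligands, Wnt4 and Wnt9b had 1 tabled transcript each. Wnt5a was divided between Wnt5a-201 (57.6% and 56.2%) and Wnt5a-202 (41.8% and 34.0%), both coding. Wnt5b-203 held 73.2% and 53.1% of Wnt5b.

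Wls, the carrier that brings Wnt proteins to the cell surface, had 59.5 and 44.5 TPM. Porcn, the enzyme that attaches their lipid, had 6.38 and 5.45 TPM. Wls thus exceeded Porcn 9.33-fold and 8.17-fold.

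No single Frizzled receptor gene led the family in both libraries, and 9 of 10 were detected. Fzd2 averaged 35.0 ± 3.14 TPM (32.8 and 37.2), Fzd1 28.8 ± 9.20 TPM (35.3 and 22.3) and Fzd4, also the receptor of Norrin, 25.4 ± 16.1 TPM (36.8 and 14.0). The first place was not resolved, since Fzd4 was highest in replicate 1 and Fzd2 in replicate 2. Fzd7 had 23.0 and 15.1 TPM and Fzd3, known for axon guidance and planar cell polarity, had 21.99 and 12.67 TPM. Fzd6, a planar polarity receptor, had 12.8 and 4.71 TPM. Below these lay Fzd8 (3.0 and 2.98 TPM), Fzd10 (2.68 and 2.90 TPM) and Fzd5 (1.83 and 1.35 TPM), and Fzd9 missed the floor at 0.84 and 0.40 TPM. Fzd2 held 19.2% and 32.8% of the summed Frizzled level, which was 171 and 114 TPM.

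The co-receptor Lrp6 had 25.4 and 13.0 TPM and its relative Lrp5 7.87 and 5.76 TPM. Lrp6 was higher than Lrp5 in both libraries, 3.22-fold and 2.26-fold.

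R-spondins raise the sensitivity of cells to Wnt by binding Lgr receptors and drawing away the ubiquitin ligases Znrf3 and Rnf43, which otherwise remove Frizzled proteins from the surface. Rspo1 had 35.2 and 30.1 TPM and Rspo3 14.3 and 16.7 TPM. These 2 made up nearly all R-spondin RNA, since Rspo2 rested on 3 and 2 counts and Rspo4 on 1 and 8. The range of Rspo1 overlapped that of Wnt11, the leading ligand by gene-level TPM. Of the receptors, Lgr4 had 32.9 and 33.4 TPM, Lgr5 6.31 and 4.33 TPM and Lgr6 0.48 and 0.54 TPM. Lgr4 held 82.9% and 87.3% of the Lgr level. Znrf3 had 16.2 and 15.8 TPM and Rnf43, itself induced by canonical Wnt signalling in other tissues, 8.10 and 4.59 TPM.

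Lgr4 was present in a longer and a shorter coding form. They differ by an exon of 72 nt, chr2:109970692-109970763 on the plus strand, which keeps the reading frame. It is shown because it tells the forms apart, with the exon in capitals, the 12 nt on each side in lower case, and the same source as above.
Lgr4 cassette exon: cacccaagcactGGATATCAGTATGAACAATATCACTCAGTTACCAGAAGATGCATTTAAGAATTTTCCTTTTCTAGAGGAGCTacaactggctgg
The form with the exon (Lgr4-201) held 67.6% and 52.8% of the TPM of the 2 forms (60.2% ± 10.4). It was the larger share in both libraries.

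**Figure D2:**
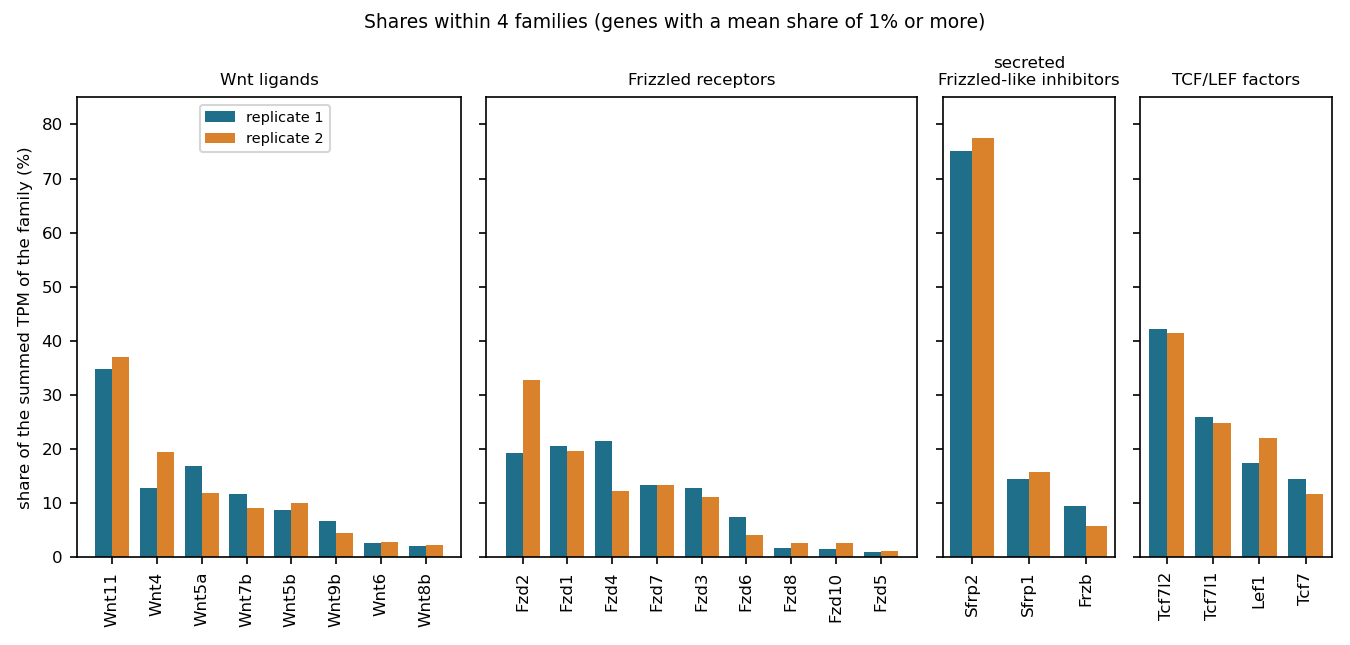
Share of the summed TPM of 4 gene families held by each gene with a mean share of 1% or more, with 1 bar per library. By gene-level TPM, Wnt11 leads the ligands (34.7% and 37.1%, but not with protein-coding transcripts alone) and Sfrp2 the Frizzled-like inhibitors (75.1% and 77.4%) in both libraries, while no Frizzled receptor leads in both.

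The secreted inhibitors were led by Sfrp2, whose product resembles the ligand-binding part of Frizzled. It had 136 and 116 TPM (126 ± 14.4), the second highest level of all 59 genes. It exceeded Sfrp1, at 26.2 and 23.6 TPM, 5.19-fold and 4.90-fold. Sfrp2 alone stood above the 98.2 and 82.6 TPM of the 19 ligands summed. Frzb (also known as Sfrp3) had 17.3 and 8.57 TPM, Sfrp4 0.77 and 1.15 TPM and Sfrp5 0.71 and 0.39 TPM. Of the Dickkopf genes, Dkk1, which blocks Lrp5 and Lrp6, had 29.7 and 23.4 TPM. Dkk3, a divergent member of the family, had 11.7 and 6.99 TPM and Dkk2 7.53 and 5.05 TPM. Dkk4 had no count, which allows up to 0.128 and 0.111 TPM.

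In the destruction complex the scaffold Apc had 18.4 and 10.3 TPM, and Axin1, the constitutive scaffold, 8.02 and 7.30 TPM. Axin2, a widely used target gene of canonical signalling that encodes a negative regulator, had 6.24 and 8.36 TPM. The ranges of Axin1 and Axin2 overlapped. Axin2 was the only one of 21 pathway genes with at least 2 transcripts and 5 TPM in both libraries whose leading transcript differed between the libraries, beside 10.7% of protein-coding genes taken by the same limits. The coding Axin2-201 led in replicate 1 with 55.6%, against 18.7% in replicate 2, where the noncoding Axin2-203 led with 39.7%, against 29.9% in replicate 1. The gene had 365 and 376 counts in all, so these shares rest on few reads.

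Ctnnb1, which encodes beta-catenin, was the highest of the 59 genes at 461 and 227 TPM (344 ± 166), at the 98.3rd percentile of protein-coding genes by mean level. It alone made up 34.1% and 24.6% of the summed level of the pathway genes. Beta-catenin also joins cadherins to the cytoskeleton at cell contacts, and its RNA level does not report how much protein escapes destruction. Of its 14 transcripts, Ctnnb1-214 (61.1% and 78.1%) and Ctnnb1-201 (33.1% and 19.3%) held the most, and both have the same annotated coding length of 2343 nt, although Ctnnb1-214 is 3422 nt long in the tables and 2702 nt in the reference. The gene Ulk4 on the opposite strand shares 759 nt of exon with Ctnnb1 and stood at 3.28 and 2.49 TPM. As no source used here says if reads were counted by strand, reads of this overlap cannot be told apart. The same holds for 10 other detected pathway genes with exon sequence opposite another gene, among them Lef1 (1208 nt with Gm43352) and Sfrp2 (347 nt with Gm26771, at 3.06 and 3.90 TPM).

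All 4 TCF/LEF factors were detected. Tcf7l2 had 62.5 and 48.3 TPM, and Tcf7l1, known mostly as a repressor, 38.37 and 28.98 TPM. Lef1, known mostly as an activator, had 25.8 and 25.7 TPM, and Tcf7 21.6 and 13.5 TPM. By gene-level TPM the order Tcf7l2, Tcf7l1, Lef1, Tcf7 was the same in both libraries. At each step the gap between the means was larger than the larger SD of the neighbouring genes. With protein-coding transcripts alone, Tcf7l1 led in both libraries, at 36.5 and 28.2 TPM, against 31.8 and 24.7 TPM for Tcf7l2. Tcf7l2 held 42.2% and 41.5% of the family level by gene-level TPM.

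Transcript forms of these factors differed in kind. Tcf7l2 was led in both libraries by Tcf7l2-206, annotated as a retained intron, with 30.5% and 34.8%, and protein-coding transcripts held 51.0% ± 0.179 of the gene. The length of Tcf7l2-206 differs between the deposited tables (1041 nt) and the reference annotation (1087 nt). Tcf7l2 and Wnt11 were the 2 of 21 pathway genes led in both libraries by a transcript not annotated as coding, beside 7.02% of protein-coding genes. Rnf43 was likewise led by a retained intron form (48.2% and 47.2%), but its 4.59 TPM in replicate 2 kept it out of the 21. Tcf7l1-201 held 85.9% and 91.4% of Tcf7l1. Both Tcf7 transcripts of the tables, Tcf7-201 (80.3% and 85.4%) and Tcf7-202, carry a coding sequence of 909 nt.

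Lef1 was 95.1% and 94.2% coding by TPM, and its forms differ by 2 exons. An exon of 84 nt in frame, chr3:131191023-131191106 on the plus strand, is shown because it was mostly skipped, with the exon in capitals, 12 nt of the neighbouring exons in lower case, and the same source as above.
Lef1 cassette exon: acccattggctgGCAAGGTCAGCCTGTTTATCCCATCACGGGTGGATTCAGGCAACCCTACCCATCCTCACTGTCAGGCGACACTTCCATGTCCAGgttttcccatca
Of the summed TPM of the 4 Lef1 transcripts that either hold or skip this exon, those with it had 8.92% and 6.21% (7.56% ± 1.92), so the shorter form took most of the Lef1 RNA in both libraries. A late exon of 41 nt, chr3:131204933-131204973, was present in 69.7% and 65.9% of the same sum, and its absence changes the end of the coding sequence.

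**Figure D3:**
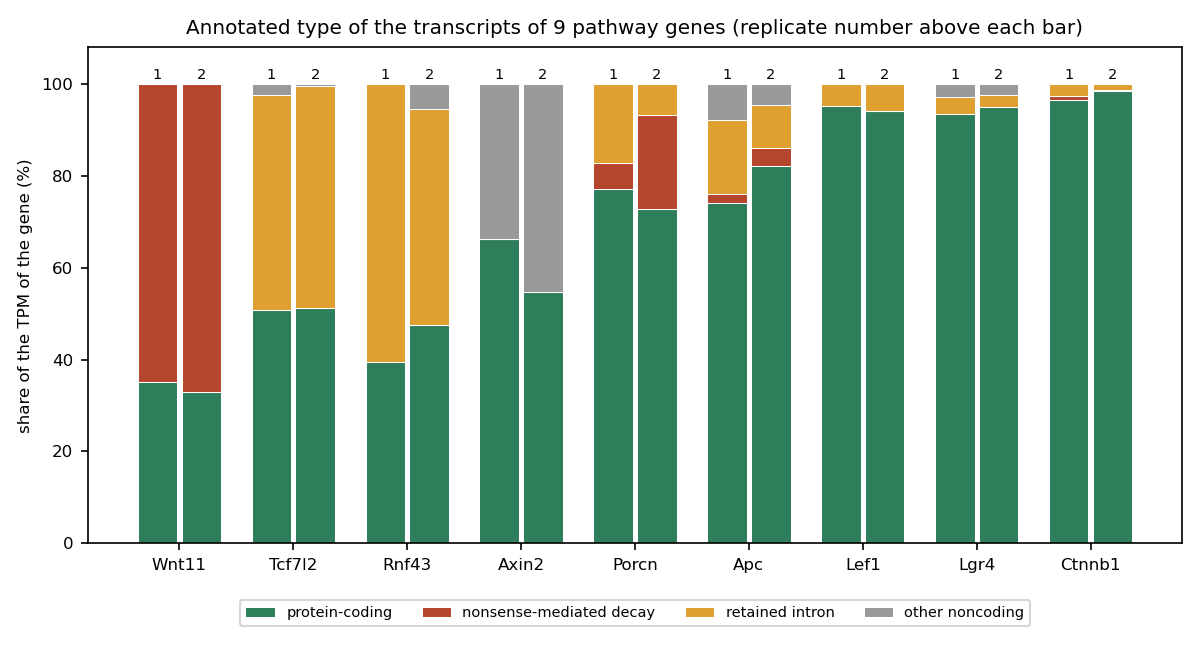
Share of the TPM of 9 pathway genes held by transcripts of each annotated type, with the replicate number above each bar. Wnt11 is 35.1% and 32.9% protein-coding and Tcf7l2 50.9% and 51.1%, while Lef1, Lgr4 and Ctnnb1 are above 90% in both libraries.

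TCF/LEF factors recognise a short core sequence, so the windows from 250 nt before to 50 nt after the starts that RefSeq gives for each gene (GRCm38.p6), which can be more than 1 per gene, were searched on both strands for the letters CTTTGAT and for the forms of these that end in AA, TT or TA in place of AT. Of the 59 genes, 38 had a window, and 7 of these (Wnt11, Wnt5b, Wnt3, Fzd7, Dkk1, Tcf7l2 and Lef1) held a match, which is 18.4%. The matching windows of Lef1, Tcf7l2 and Wnt5b were at internal starts, 45823, 153501 and 94961 nt inside the GENCODE gene, and those of the other 4 genes lay within 277 nt of the outer start. Over all 27025 genes with a window the share was 18.9%. A match describes the letters of a window and not binding.

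In TPM the 2 libraries differed most for Fzd4, Fzd6 and Ctnnb1. Once gene length was taken into account, these kept their order among themselves, but Wnt4 differed most in size (−0.91). Genes were called apart between the libraries when log2((TPM + 1) ratio), replicate 1 over replicate 2, was at least 1 in size and the higher library reached 5 TPM. Of the 36 pathway genes that reached 5 TPM, 3 were apart (8.33%), all higher in replicate 1, beside 4.68% of protein-coding genes in either direction and 4.22% higher in replicate 1. Ctnnb1 differed by 1.02 on the log2 scale, a ratio of 2.03 in TPM (95% interval 1.99 to 2.07 from counting error alone). Fzd4 differed by 1.33, a ratio of 2.63 (2.45 to 2.82), and Fzd6 by 1.27, a ratio of 2.71 (2.42 to 3.05). These intervals do not hold the variation between embryos or preparations. With size factors in place of TPM, Fzd4 alone was apart, beside 1.63% of protein-coding genes. With ratios centred on gene length 0 pathway genes were, beside 1.10%. All 12 marker lists also summed higher in replicate 1, in TPM. The sums were 96.7 and 64.6 TPM for endothelium, 47.1 and 32.3 TPM for podocytes, 46.3 and 29.7 TPM for blood and immune cells, 422 and 286 TPM for the early nephron and 24.0 and 14.2 TPM for liver. They were 644 and 526 TPM for stroma, 468 and 402 TPM for ureteric epithelium, 261 and 250 TPM for nephron progenitors and 17.95 and 15.6 TPM for neurons. Of the markers that reached 5 TPM, 1 of 3 in endothelium, 1 of 2 in podocytes and 1 of 5 in stroma were apart. All were higher in replicate 1, beside 4.22% of protein-coding genes. It was 0 of 5 for nephron progenitors, 0 of 5 for ureteric epithelium and 0 of 4 for the early nephron. None was apart in the remaining lists. These calls were not repeated with size factors or centring on length. The markers at 5 TPM or more that were lower in replicate 1 were Foxd1 and Tcf21 (stroma), Cited1 and Osr1 (nephron progenitors), Calb1 (ureteric epithelium) and Stmn2 (neurons). A higher sum therefore did not mean that every marker of a list was higher. The part of these cell types in the differences was not tested.

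In TPM most genes, the pathway among them, were higher in replicate 1, a direction that held for fewer pathway genes under some other scalings. Of 41 detected pathway genes 35 had the higher TPM in replicate 1, beside 76.3% of detected protein-coding genes. The 6 with the lower TPM there were Wnt4, Fzd2, Fzd10, Rspo3, Lgr4 and Axin2. The median log2 ratio was 0.37 over the 41 pathway genes at a mean of 1 TPM or more and 0.29 over 12995 protein-coding genes. The count of 35 depended on the scaling. It was 23 with size factors and 24 with FPKM, where the median of protein-coding genes was −0.01 and 0.08. It was 36 of 42 with posterior mean TPM and 34 of 43 with rescaled TPM. The share of protein-coding genes higher in replicate 1 was not counted under these scalings.

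The difference between the libraries ran with gene length. In 10 bins of effective length, the median log2 ratio of protein-coding genes was −0.17 in the shortest bin and 0.58 in the ninth. Pathway genes followed these medians in the eighth bin (0.50 over 9 genes, beside 0.52) and the ninth (0.52 over 10 genes, beside 0.58). They departed in the tenth (0.70 over 5 genes, beside 0.52) and in the sixth, whose 1 gene, Axin2, was at −0.37 beside 0.39. With each gene centred on its bin, the median over the pathway genes was −0.02, beside 0 over protein-coding genes by construction. Of the 41 pathway genes, 18 were above 0 and none was apart, beside 1.10% of protein-coding genes. Fzd4 then stood at 0.81, Fzd6 at 0.69 and Ctnnb1 at 0.50. At the other end stood Wnt4 at −0.91, Axin2 at −0.76 and Fzd2 at −0.70, lower in replicate 1 than genes of like length. The Axin2 counts were close, at 365 and 376. Its deposited gene length, which follows its transcript shares, was 3096 nt in replicate 1 and 2097 nt in replicate 2. The part of that length in its ratio was not tested, and those shares rest on few reads.

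**Figure D4:**
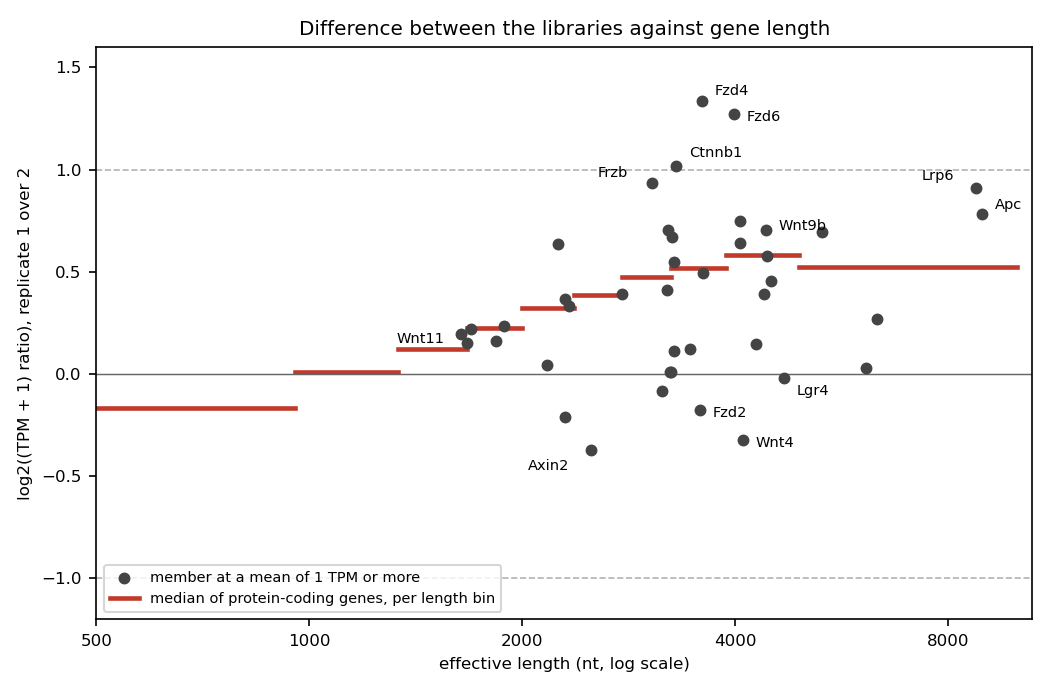
Log2((TPM + 1) ratio), replicate 1 over replicate 2, against effective length in nt (log scale) for the 41 pathway genes at a mean of 1 TPM or more. Red bars are medians of protein-coding genes in bins of length, from −0.17 to 0.58, and dashed lines mark a ratio of 2. In TPM, Fzd4, Fzd6 and Ctnnb1 lie above the upper line (Fzd4 alone with size factors), and Wnt4 and Axin2 below 0.

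Most of the further pathway genes listed were present as well. Of 26 further cytoplasmic and nuclear components 25 were detected, beside 59.0% of protein-coding genes. The median of the list was 24.2 TPM, beside 4.20 TPM over all protein-coding genes. By mean level the highest were the casein kinases Csnk1a1 (239 ± 41.2 TPM), Csnk1e (71.9 ± 11.7 TPM) and Csnk1g2 (65.1 ± 1.37 TPM). Csnk1a1 led in both libraries, but the places after it changed between them. The lowest were Pygo1 (4.89 ± 1.14 TPM), a partner of the beta-catenin complex, and Apc2 (0.84 ± 0.0424 TPM). The kinase gene Gsk3b had 64.9 and 64.6 TPM. Of the 25 that reached 5 TPM, Fbxw11 and Tnks were apart, both higher in replicate 1, beside 4.22% of protein-coding genes. With size factors Tnks alone was apart, and with centring on length neither was, beside 1.63% and 1.10% of protein-coding genes.

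Of 23 co-receptors and extracellular or membrane-proximal modulators 20 were detected, beside 59.0% of protein-coding genes. The median of the list was 9.67 TPM, beside 4.20 TPM over all protein-coding genes. The glypican Gpc3, a heparan sulphate proteoglycan of the cell surface, had 812 and 752 TPM and was higher than any of the 59 genes. Igfbp4 followed with 363 ± 77.6 TPM and Cthrc1 with 58.7 ± 3.24 TPM. Sost (0.31 ± 0.325 TPM) and Cer1 (no count) were lowest. Of the 17 that reached 5 TPM, Gpc4 and Kremen1, a Dickkopf receptor, were apart, both higher in replicate 1, beside 4.22% of protein-coding genes. Neither was apart with size factors or with centring on length, beside 1.63% and 1.10% of protein-coding genes.

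Of 14 genes known to respond to canonical Wnt signalling 13 were matched, and Tafa5 was not. Of the 13, 12 were detected, beside 59.0% of protein-coding genes. The median of the list was 21.3 TPM, beside 4.20 TPM over all protein-coding genes. Ccnd1 (197 ± 53.3 TPM), Cited1 (136 ± 6.92 TPM) and Pax8 (89.7 ± 29.2 TPM) were highest, and Sp5 (2.76 ± 0.417 TPM) and Cdx1 (0.375 ± 0.262 TPM) lowest. Several of these genes also have other inputs in nephron progenitors and renal vesicles. Of the 11 that reached 5 TPM 0 were apart, beside 4.68% of protein-coding genes, at which share a count of 0 in so short a list is near the background. Their list median log2 ratio was 0.10, beside the 0.29 of protein-coding genes. The other companion lists were also under 0.29, at 0.15 for co-receptors and modulators and 0.25 for cytoplasmic and nuclear components. None of these medians was centred on gene length, with which the ratio ran. The part of length in these gaps was not tested.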

How the data were processed

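Total RNA of 2 E14.5 kidney libraries was analysed from gene and transcript tables. Per the file headers, the deposited values were expected counts (reads apportioned over features), TPM and FPKM. The deposited bounds of a credibility interval for TPM, a signal on the TPM scale, were read but not used for any call. The deposited isoform percent gives the share of each transcript in its gene. The build is mm10 and the annotation GENCODE M4, per the read-me deposited with each library. No source used here gives the quantification tool, the aligner or the use of strand. Features that are not genes, spike-ins among them, held 4.34% and 4.95% of counts and were left out of the gene sets. The TPM were used as deposited and were not rescaled without these features. Rescaling without mitochondrial, haemoglobin and spike-in features was an alternative only. It gave a median level of 8.57 TPM over the pathway genes, beside 7.3 TPM as reported.

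Symbols, types and coordinates came from GENCODE M21 on GRCm38, which matched 42462 of 43346 gene IDs. As it is another release, transcript structures can differ, and 158 of 185 pathway transcripts had the same length. Coordinates are 1-based. Pathway genes and lists were chosen by symbol with earlier results of these data known. Every pathway gene is named by role, with both values if it was detected. Of each companion list the 3 highest and 2 lowest genes are named, and others named there (Gsk3b and the genes apart) were chosen after their values were seen. Transcript shares are given for a listed set of genes, with others named after their values were seen. A gene was called apart when log2((TPM + 1) ratio) reached 1 in size and the higher library reached 5 TPM. The pseudocount of 1 understates differences of low genes. Intervals of ratios are exact conditional binomial 95% intervals of counts, and they and the limit of 3 counts for a count of 0 cover counting error only. The labels do not say whether the 2 embryos came from 1 litter. No test was possible with 2 libraries of 1 group. The size rule was tested on simulated data only for changes larger than its fold, in genes above its minimum level. That simulation held no trend with gene length between the libraries, so it does not cover the trend found here. Alternatives covered floors, pseudocounts, FPKM, posterior mean TPM, rescaled TPM, size factors, centring on length, other folds and filters, protein-coding transcripts and leaving out each library. Calculations were run in Python 3.11.15 with pandas 2.3.3 and numpy 2.4.6, intervals came from scipy 1.17.1 and plots from matplotlib 3.10.9.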

Additional observations from a re-analysis of the deposited data

How the results depend on the processing

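The detected pathway genes numbered 41 in TPM, 41 in FPKM, 42 in posterior mean TPM, and 44, 39 and 32 with floors of 0.5, 2 and 5 TPM. With 1 library alone the count ranged from 41 to 42, the median level from 5.76 to 8.02 TPM, and the Wnt11 share of ligand TPM from 34.7% to 37.1%. The median level was 5.27 in FPKM. With protein-coding transcripts alone the largest mean ligand share was 21.6% (Wnt4), but Wnt5a led in replicate 1 and Wnt4 in replicate 2. The median log2 ratio between the libraries, 0.37 as reported, was 0.14 in FPKM, 0.065 with size factors, −0.025 after centring on length and 0.19 with no filter on level. The 3 genes apart were 1 (Fzd4) with size factors, 0 after centring on length, 13 at a fold of 1.5, 4 at a pseudocount of 0.1 (with Frzb) and 2 at a pseudocount of 5 and in FPKM. The shares of protein-coding genes apart under these settings, in the same order, were 1.63%, 1.10%, 26.7%, 6.59%, 1.47% and 1.66%, beside 4.68% as reported. Except where the construction shows it (a smaller fold, centring, fewer transcripts), the cause was not tested. Protein-coding transcripts for detection (41 genes) and the other scalings for the companion lists were chosen after seeing the data. Ratios between libraries cannot be recomputed without either library. No paired analysis was possible because both libraries belong to 1 group. Ligands under the floor had at most 42 counts in a library, so depth limits their levels.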
